A study of Homo sapiens with 24 samples.

Results

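The fragments described here are pieces of human 3′ untranslated regions (3′ UTRs) carried by reporter plasmids in SH-SY5Y, an established human neuroblastoma line used as a model of neuron-like cells. Each fragment bears the reference base of a single-nucleotide polymorphism and is named by its gene and rs number. A fragment was kept if its reference oligo had a mean of at least 100 counts over the 6 SH-SY5Y DNA libraries, which left 10276 of 11265 reference oligos, from 1602 of 1637 genes. The reference oligos are part of a pool of 24780 oligos that also holds the alternative alleles. The pool was delivered with a Lipofectamine reagent, and plasmid DNA and poly(A) RNA were each sequenced from 6 biological replicates. The same assay was run in microglia immortalised with SV40. No group received another treatment, and both lines are single lines. The counts describe reporters and not native transcripts, so the identity of the cells could not be checked against marker genes.

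A 3′ UTR is the stretch of an mRNA between the stop codon and the poly(A) tail. RNA-binding proteins and microRNAs bind there and set how long the mRNA lasts, where it goes and how well it is translated, and neurons are known for long 3′ UTRs with many such sites. A reporter carrying a fragment gives more or less RNA per plasmid according to what the fragment does to synthesis, processing or decay, which the assay does not separate. The fragment sequences and the SNP positions were not used here, so the place given for a fragment is that of its gene.

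Activity is the log2 ratio of a fragment's share of the RNA library to its share of the DNA library, each share taken of the total over all oligos. A value of 0 means that RNA and plasmid shares were equal, a value of 1 means a doubled RNA share and -1 a halved one. Shares are relative to the whole pool, so 0 stands for about the pool average and not for a fragment without effect. Totals ran from 16556722 to 19101103 counts in the DNA and from 11764547 to 18100832 in the RNA libraries. The median fragment had 631 counts per DNA library and 488 per RNA library. The fitted activity and its adjusted p come from edgeR's quasi-likelihood test with Benjamini-Hochberg adjustment over all 10973 reference oligos with a mean of at least 10 DNA counts. The ± values are standard deviations of the activity over the 6 RNA replicates, each set against the mean DNA share. They stand beside the fitted activity, which is not the mean of the replicates and can lie well away from it where replicates differ. The labels call the replicates biological and tie RNA to independent transfections. A call is an adjusted p under 0.05.

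Most 3′ UTR fragments gave RNA per plasmid close to the average of the pool. The scaling by library totals itself places the centre near 0, so higher and lower are relative to the pool. The median activity was 0.00, 83.6% of the fragments lay within 0.5 of 0, and the central 90% ran from -0.90 to 0.46. The tail on the low side was the longer, with the lowest percentile at -1.61 and the highest at 0.67. Of the 10276 fragments, 813 were called, 293 higher and 520 lower in RNA, and 2162 had an unadjusted p under 0.05. Over all oligos tested 7.87% were called, 2.68% higher and 5.19% lower. The higher calls were small, with a median of 0.47 (1.39-fold), and 12 of them reached 1. The lower calls had a median of -0.98, and 251 of them reached -1. The split of calls moved with the scaling. TMM factors shifted the median by 0.06 and gave 459 higher and 447 lower calls, so that 50.7% were higher in place of 36.0% (4.19% higher and 4.53% lower over all oligos tested). DESeq2 gave 1584 calls, of which 888 were higher. Higher calls numbered 190 with the replicate number as a block and 195 without replicate 4.

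All 6 RNA shares lay above all 6 DNA shares for 221 of the 10276 fragments and below them for 631. Over all 10973 oligos tested, 222 (2.02%) lay above and 693 (6.32%) below. These fragments include 179 of the higher and 453 of the lower calls. The sign was the same in all 6 RNA replicates for 246 of the 293 higher calls and for 506 of the 520 lower calls. In 47 of the higher and 14 of the lower calls 1 replicate lay on the other side of 0.

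TREML2, a gene of the TREM receptor cluster on myeloid and lymphoid cells, gave the highest fragment. In the DNA the fragment with the A allele of rs112522404 held 35.4 to 42.5 CPM, the usual scaled share of the library total (median 38.6), and in the RNA 330 to 440 (median 386). Every RNA library was far above every DNA library, and the replicates were close together. The activity was 3.33 ± 0.16 (n = 6), a 10.1-fold excess of RNA (adjusted p = 1.63e-14). The gene lies on chromosome 6 from 41189749 to 41201149 (GRCh38.p14). No other fragment came near this value, since the next, from FBXL18, was at 1.78. The TREML2 fragment with the G allele was at 3.02 ± 0.11 with 772 DNA counts per library, so both alleles showed the excess. Among the 14 TREML2 fragments the median was -0.08. The fragment at rs9394766 was called higher at 0.53 ± 0.07, and the lowest, at rs7754593, stood at -1.06.

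Among the other 14 highest fragments, replicates lay closest together for KCTD10 and ATXN3. KCTD10 encodes an adaptor of a cullin ubiquitin ligase, and its fragment with rs11540749 held 199 to 209 CPM in DNA (median 205) and 370 to 435 in RNA (median 403). All 6 replicates agreed closely, at 0.97 ± 0.09 (adjusted p = 4.40e-09; gene on chromosome 12, 109448655 to 109477300). ATXN3 encodes a deubiquitinase whose expanded form causes Machado-Joseph disease. Its rs1134377 fragment held 48.0 to 56.3 CPM in DNA (median 51.9) and 102 to 128 in RNA (median 119). That is an activity of 1.17 ± 0.13 (adjusted p = 3.41e-07; chromosome 14, 92044775 to 92106582), while the median over the 22 ATXN3 fragments was -0.14.

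ARHGAP40, a gene for a GTPase-activating protein, had 71.2 to 82.0 CPM in DNA and 119 to 204 in RNA (median 142) for rs6027039. The groups did not overlap, and the activity was 1.01 ± 0.28 (adjusted p = 1.87e-05; chromosome 20, 38601809 to 38650653). The fragment of PUS1, a pseudouridine synthase gene, was at 1.15 ± 0.35 for rs117705819 (chromosome 12, 131929276 to 131945896). TMEM245 (rs58928086; chromosome 9, 109015135 to 109119947), which encodes a membrane protein, was at 0.97 ± 0.28. WDR27 (rs16888021; chromosome 6, 169426420 to 169702029), a WD-repeat gene, was at 1.20 ± 0.27, and GIN1 (rs257316; chromosome 5, 103086000 to 103120138), a gene derived from a retrotransposon integrase, at 1.14 ± 0.22. MAN2A2, which encodes a Golgi mannosidase that trims N-glycans, was at 0.95 ± 0.43 (rs10048033; chromosome 15, 90902382 to 90922585).

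Replicates lay further apart in some of the high fragments. FBXL18 encodes a substrate adaptor of an SCF ubiquitin ligase, and its rs182946436 fragment had activities of 0.79 to 2.31 (median 1.66, SD 0.58) on 140 DNA counts per library. DSG3 encodes a desmosomal cadherin, and its rs181938639 fragment ran from 0.36 to 2.32 (median 1.33, SD 0.72). Both were called, at fitted activities of 1.78 and 1.42 (adjusted p = 0.000497 and 0.00715). MOG, a myelin protein gene (rs2535243, 1.38 ± 0.35), TRIM56, a gene for an antiviral ubiquitin ligase (rs13229423, 1.18 ± 0.36), and PPP1R16B, a regulatory subunit of protein phosphatase 1 (rs4812336, 1.15 ± 0.46), were called too. In each of these the lowest RNA library was above the highest DNA library. The SGO1 fragment with rs9822963, from the gene for the cohesin protector shugoshin, was called at 1.04 ± 0.55 (adjusted p = 0.0217). Leaving out replicate 1 or replicate 6 ended that call, with values from 0.80 to 1.14 in the 6 such fits, as did the replicate number as a block (adjusted p = 0.0618).

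At the low end stood C1orf106 (now INAVA), a gene of innate immune signalling and epithelial barriers on chromosome 1 from 200891531 to 200915742. Its rs296523 fragment had 102 to 189 DNA counts per library (median 129) and 1 to 8 RNA counts (median 2.5). All 6 RNA libraries were low, with activities from -6.25 to -3.78, and the fitted value was -5.08 ± 0.86, 33.7-fold less RNA than plasmid (adjusted p = 2.51e-05). It rests on 19 RNA counts in all. CARF encodes a calcium-responsive transcription factor of neurons (chromosome 2, 202912275 to 202988263). Its rs6736831 fragment had 84 to 125 DNA counts (median 102) and 6 to 9 RNA counts (median 6.5), and its replicates were the most even of the lowest 15, at -3.51 ± 0.41. ACSM1, a medium-chain acyl-CoA synthetase gene (chromosome 16, 20623235 to 20697680), had 178 to 275 DNA counts (median 228) and 10 to 43 RNA counts (median 32.5) for rs189249655, at -2.68 ± 0.65.

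Larger counts backed several of the low fragments. BTN3A2, a butyrophilin gene of the extended MHC (chromosome 6, 26365169 to 26378320), had 530 to 795 DNA counts (median 752) and 67 to 217 RNA counts (median 106.5) for rs9393716. The groups were far apart, at -2.31 ± 0.48 (adjusted p = 4.72e-06). GRIN2B encodes an NMDA receptor subunit (chromosome 12, 13537337 to 13982134), and its rs79882245 fragment had 485 to 684 DNA counts (median 595.5) against 13 to 131 in RNA (median 75.5). The fitted value was -2.67 ± 1.30 (adjusted p = 0.000642). FBXL18 appears here as well: its rs61447150 fragment was at -2.27 ± 1.30 on 703 DNA counts per library. LMO7, a LIM-domain gene (rs9544054, -3.96 ± 1.51), and the zinc finger gene ZNF432 (rs144016708, -3.67 ± 1.32) were called on 37 and 57 RNA counts in all.

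Some low calls were lost when 1 replicate was left out, while the fitted values stayed low. For TSNARE1, a SNARE-domain gene named at schizophrenia loci, the rs79248723 fragment was at -0.83 in replicate 1 and between -5.58 and -3.90 in the others, with a fitted value of -2.99 (adjusted p = 0.0194). It was at -4.82 without replicate 1, and without any one of replicates 2 to 6 it was at -2.84 to -2.73 and no longer called. ATXN1L, a paralogue of ataxin-1, behaved alike for rs76665038, at -2.97 over all 6, -4.68 without replicate 1 and -2.85 to -2.76, with no call, without any one of the others. TRIM40 (rs17188050, -2.60 ± 2.13) lost its call without replicate 2, 3, 4, 5 or 6 and ran from -3.56 without replicate 1 to -2.34. The plain mean of the TRIM40 replicates was -3.76. The actin-nucleating gene ACTR2 (rs12560, -2.38 ± 1.66) and the corepressor gene RUNX1T1 (rs74778638, -2.36 ± 1.81) lost theirs without replicate 1, 4, 5 or 6 (from -3.04 without replicate 3 to -2.12, and from -3.22 without replicate 2 to -2.10). TCEA2, an elongation factor gene (rs115220371, -2.29 ± 1.90), lost it without replicate 1, 2 or 4 (from -2.64 to -2.09). The LOC101929705 fragment with rs540635474 (-2.97 ± 1.81), from a locus that had no match in RefSeq, kept its call in all 6 such fits and was at -3.64 without replicate 4.

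The spread between replicates fell, and the share called rose, with the plasmid count. The median SD over replicates was 1.41 for the 949 fragments with 100 to 200 DNA counts, and 0.72, 0.50, 0.36 and 0.25 for those with 200 to 400, 400 to 800, 800 to 1600 and at least 1600. The share called higher was 0.211%, 0.627%, 1.38%, 4.28% and 11.0% over these ranges, and the share called lower 2.00%, 1.93%, 4.00%, 7.59% and 10.7%. The fitted activity and the plain mean of replicate log2 values also lay further apart at low counts, with medians of -0.10 and -0.57 in the lowest range and 0.07 and 0.05 in the highest. Over all fragments the median SD was 0.48 for RNA activity and 0.11 for the log2 DNA share. Correlations of activity between RNA replicates, across fragments, were 0.219 to 0.342, and 0.561 to 0.687 over the 943 fragments with at least 1600 DNA counts. The members nearest the limit of 100 show the same spread. PKHD1 rs9474051 lay just inside it, at 100 counts with replicates from -4.57 to 1.59, and AMIGO2 rs79435537 just outside, at 99.8 counts with replicates from -4.50 to 1.34.

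The alternative allele gives a readout of nearly the same fragment from oligos of its own, in the same libraries. Of 11816 alternative oligos with at least 100 DNA counts beside a member, 355 belonged to a higher call. Of these, 315 (88.7%) had activity above 0, against 49.9% of all 11816, and 91 (25.6%) were called higher themselves, against 2.90%. For the lower calls, 582 of 614 alternatives (94.8%) lay below 0 and 344 (56.0%) were called lower, against 50.1% and 5.80%. No alternative of a higher call and 2 of a lower call were called the other way. Over all alternative oligos tested 8.37% were called. Across pairs, the activities of the 2 alleles had a Pearson's r of 0.594 and a Spearman's rank correlation of 0.474, rising to 0.749 and 0.640 over the 3551 pairs with at least 800 DNA counts each. Pairs share libraries, and alternatives of 1 SNP share a reference.

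Among the 15 highest fragments, 17 of 18 alternative oligos with at least 100 DNA counts were above 0 and 13 were called higher. Among the 15 lowest, 12 of 13 were below 0 and 8 were called lower. TMEM245 was at 0.97 for the T reference and 1.57 ± 0.15 and 1.60 ± 0.30 for the A and C alleles. PPP1R16B stood at 1.13 ± 0.31, PUS1 at 1.24 ± 0.35, ARHGAP40 at 0.96 ± 0.14 and FBXL18 rs182946436 at 1.82 ± 0.30 with the other allele. On the low side RUNX1T1 was at -4.18 ± 1.01 with its other allele, TRIM40 at -1.69 ± 0.34 on 1567 DNA counts, and GRIN2B rs79882245 at -1.64 ± 0.85. CARF was at -3.31 ± 1.31 and -3.13 ± 0.92 with its A and T alleles, on 25.0 and 41.0 DNA counts. Elsewhere the second allele was nearer 0. LMO7 was at 0.06 ± 0.87 with the T allele on 592 DNA counts. SGO1 was at -0.33 ± 0.72 and 0.19 ± 0.62 with its other alleles, and ACTR2 at -0.05 ± 2.41 and -0.08 ± 1.77 on few counts. GIN1 was at 0.39 ± 0.36, DSG3 at 0.49 ± 0.76, TCEA2 at -0.38 ± 0.72 and TSNARE1 at -0.62 ± 2.57 with their other alleles, none of them called. KCTD10 was called at 0.40 ± 0.23 and C1orf106 at -2.04 ± 1.66. The difference between alleles was not tested here.

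Fragments of 1 gene varied about as much as fragments of different genes. Over the 9961 fragments of the 1287 genes with more than 1 fragment, 0.110% of the variance in fitted activity lay between genes, and the SD within genes was 0.44, as over all fragments (0.44). At 800 or more DNA counts the share between genes was 0.830% (3489 fragments, 782 genes). Calls were found in 548 genes, and 78 of these had calls in both directions. FBXL18 spanned -2.27 to 1.78 over 32 fragments, TREML2 -1.06 to 3.33 over 14, LMO7 -3.96 to 0.29 over 9, LOC101929705 -2.97 to 0.72 over 39 and GRIN2B -2.67 to 0.76 over 108. These spans cover all fragments of a gene, called or not. TRIM56 also held both ends, with rs13229423 at 1.18 and rs71557293 at -1.99 ± 1.06.

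Of 337 genes with at least 10 fragments, 98 had no call, and the median of gene medians was -0.01. Among the lowest gene medians were those of NDRG4 (-0.52), ENTPD4 (-0.37), RNGTT (-0.36) and ALDH4A1 (-0.34). NDRG4, a gene expressed in brain and heart, had 10 of 11 fragments below 0 but 1 call. ENTPD4 encodes a Golgi nucleotidase and RNGTT the mRNA capping enzyme, and they had 1 and 0 calls. The highest medians were those of ZDHHC8 (0.40), a palmitoyltransferase gene, TRIM38 (0.24), KCNA6 (0.22), SGO1 (0.22) and STX11 (0.22). All 10 fragments of TRIM38, an antiviral signalling gene, lay above 0 (0.02 to 0.41), and 2 were called. The genes at both ends were picked by these same medians out of the 337, and 0.110% of the variance lay between genes. Whether any gene differs from the others was not tested. The most higher calls in a gene were the 4 of 20 in ZDHHC24, another palmitoyltransferase gene. Most lower calls among these genes were found in GRIN2B (7 of 108) and LOC101929705 (7 of 39), followed by SLCO1A2, an organic anion transporter gene (5 of 37), and SNED1 (5 of 35), which the naming rule left out of the tie. GRIN2B and LOC101929705 also had 3 higher calls each. Over all oligos tested 2.68% were called higher and 5.19% lower. The genes are ranked here by counts of calls, and GRIN2B had the most fragments of any gene.

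Grouped by function, list medians lay between -0.13 and 0.05, near the 0.00 of all fragments, and TMM moved several across 0, so no direction is given for a list. Calls were 0% to 14.3% of a list, beside 7.87% over all oligos tested. The lists differed in depth, with median DNA counts from 343 (histones, 0% called) to 895 (HLA class I, 4%). Alcohol and aldehyde metabolism, the list with 14.3%, was at 761. Over all fragments the share called rose with the DNA count, and the list shares were not adjusted for it. For the counts by direction given below, the shares over all oligos tested were 2.68% higher and 5.19% lower. The lists overlap, and no list was tested as a set.

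Among neuronal genes, neurotransmitter receptors had 3 higher and 13 lower of 179 fragments in 9 genes. GRIN2B held 7 of the lower calls and all 3 higher ones. Of these higher calls, rs59746447 (0.57 ± 0.31) and rs111568757 (0.49) were lost with the replicate number as a block (adjusted p = 0.0814 and 0.0572) and without replicate 1, 2, 3, 4 or 6. CHRNA3, a nicotinic receptor subunit gene, was at -1.75 ± 1.63 for rs8192482 (adjusted p = 0.0329), a call lost without replicate 1, 2, 4, 5 or 6 (-2.02 to -1.45). Ion channels had 2 higher and 2 lower of 96. The potassium channel gene KCNA6 held the clearest, rs10774276 at -1.40 ± 0.39 (adjusted p = 5.41e-05), while its 11 fragments had a median of 0.22. Synaptic vesicle and scaffold genes had 4 higher and 4 lower of 170. SYT13, a synaptotagmin gene, had 2 higher and 2 lower of 18 fragments. Among them rs2902427 was at 0.55 ± 0.27 and rs74316935 at -1.13 ± 0.90. The call of rs74316935 was lost without replicate 2, 3, 4 or 5. AAK1, an endocytic kinase gene, was at -0.65 ± 0.30 for rs73934961.

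Among immune genes, HLA class II had 4 higher and 11 lower of 144 fragments. HLA-DPB1 rs9277535 was at 0.47 ± 0.15 and HLA-DPA1 rs2071365 at -1.49 ± 0.54. HLA-DRA had 3 of 8 fragments called lower, its lowest at -1.77 ± 1.94 (rs1051336, adjusted p = 0.0494), a call lost with TMM and without replicate 1, 2, 4, 5 or 6 (-2.07 to -1.54). HLA class I had 1 lower of 25. HLA genes have near-identical copies, and how their reads were assigned is not stated in the labels, so these values are uncertain. Cytokine, chemokine and TNF family genes, whose native mRNAs are often short-lived, had 4 higher and 4 lower of 112. IL6, the interleukin-6 gene, was at -1.90 ± 1.09 for rs2069848, and CXCL12, a chemokine gene, at -1.51 ± 0.50 for rs1065297. IFNK, a type I interferon gene, was at 0.63 ± 0.32 for rs3739528. The TRIM family had 5 higher and 10 lower of 142.

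Among genes of RNA control, the RNA-binding and microRNA list had 4 higher and 8 lower of 104 fragments. IGF2BP1 encodes an mRNA-binding protein of development, and its rs557502783 fragment held 20.3 to 23.3 CPM in DNA (median 20.7) and 5.06 to 7.08 in RNA (median 5.82). Its 6 replicates were even, at -1.82 ± 0.18 (adjusted p = 8.01e-05). RBM26 was at -1.54 ± 0.50 for rs3187338. Replication-dependent histone genes, whose native mRNAs end in a stem-loop and carry no poly(A) tail, had 5 fragments from -0.07 to 0.55 and no call. Zinc finger genes had 11 higher and 26 lower of 486, with ZNF507 rs73034207 at -2.26 ± 0.90 and ZNF320 rs35140844 at 0.83 ± 0.37. Genes listed as antisense or long non-coding RNA had 10 higher and 12 lower of 179, of which LOC101929705 had 3 and 7. LOC101929705 had no match in RefSeq, so its class was not checked.

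Among enzymes and transporters, alcohol and aldehyde metabolism had 3 lower and 0 higher of 21 fragments. ALDH4A1 encodes a mitochondrial dehydrogenase of proline breakdown and held 2 of the 3. Its rs3202002 fragment had 37.2 to 50.8 CPM in DNA (median 39.9) and 10.9 to 15.7 in RNA (median 13.8), at -1.64 ± 0.23 (adjusted p = 9.53e-06). Serine/threonine phosphatase subunits had 7 higher and 4 lower of 87, with PPM1F rs2070506 at -1.13 ± 0.26 and PPP2R2D rs72636963 at 0.70 ± 0.42. PPP2R2D and PPP1R3B had 3 of the higher calls each. Ubiquitin ligases and deubiquitinases had 9 higher and 11 lower of 232, solute carriers 3 and 13 of 251, and MAP kinases and dual-specificity phosphatases 1 and 1 of 64. Among the MAP kinases MAPK14, the p38 alpha gene, was at 0.38 ± 0.10 for rs3804453. Cadherins, integrins and junction genes had 6 higher and 6 lower of 121, with JAM2 rs78377126 at -1.71 ± 0.80 and ITGA11 rs115109964 at -1.66 ± 0.81.

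Among disease lists, genes named at Alzheimer disease loci had 4 higher and 10 lower of 99 fragments (3 of the 4 in TREML2), Parkinson disease loci 3 and 11 of 206, and psychiatric risk loci 3 and 16 of 250. The ALS, frontotemporal dementia and ataxia list had 1 and 4 of 86, and lysosome and autophagy genes 2 and 8 of 149. CTSB encodes the lysosomal protease cathepsin B, and its rs71518539 fragment was at -1.75 ± 0.55 (adjusted p = 2.21e-05), one of 4 lower calls in 30 fragments. CR1, a complement receptor gene, was at -2.18 ± 0.55 for rs10863434. NEU1, a lysosomal sialidase gene, was at 0.45 ± 0.13 for rs13118, and KANSL1, a chromatin regulator gene, at 0.43 ± 0.18 for rs7350928.

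Most SH-SY5Y calls had the same sign in microglia. Of the 293 higher calls 271 were above 0 there, 173 were called higher and 2 lower. Of the 520 lower calls 510 were below 0, 454 were called lower and 0 higher. Over all fragments 54.9% were above 0 and 45.1% below 0 in microglia, and 9.03% of all oligos tested there were called higher and 12.0% lower. Across the 10276 fragments, which share 1 oligo pool, activity in the 2 lines had a Pearson's r of 0.678 and a Spearman's rank correlation of 0.514. Libraries with the same replicate number were more alike between lines than others. Deviations of RNA shares from their group mean correlated by 0.0445 to 0.115 between same-numbered SH-SY5Y and microglia libraries and by -0.0500 to 0.0154 otherwise. For DNA shares these correlations were 0.0262 to 0.0853 and -0.0376 to 0.0106. Activity in single replicates correlated by 0.338 to 0.438 between lines for the same number and by 0.279 to 0.432 for other numbers. The part of this likeness in the results was not tested. The difference between lines passed for 52 of the 10276 fragments, beside 60 of all 10948 oligos tested (0.548%). Of the 52, 35 had higher activity in SH-SY5Y and 17 in microglia, and TMM raised the 60 to 108. TREML2 rs112522404 was at 0.83 ± 0.25 in microglia, a difference of -2.50 (microglia minus SH-SY5Y, adjusted p = 2.68e-14), and ARHGAP40 rs6027039 was at -0.41 ± 0.19 there, a difference of -1.43 (adjusted p = 2.82e-07). Both fragments were named for their high SH-SY5Y activity, which is 1 side of the difference and favours a negative one.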

How the data were processed

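The authors' deposited table holds raw counts per variant, allele and library, with no scaling. Per the submitters' processing notes the tools included cutadapt 2.7, UMI-tools 1.0.0, Bowtie2 and SAMtools 1.10, and the build was hg38; the roles and settings are not given in the sources used here. Per the labels' protocols the RNA primer carried a molecular identifier. If DNA counts were not collapsed, they overstate the number of DNA molecules seen.

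Reference counts were taken once per gene and rs number. RNA was compared with DNA in edgeR 4.0.16 (R 4.3.3; quasi-likelihood F test, library size equal to the total over all oligos, at least 10 mean DNA counts, 12 libraries, Benjamini-Hochberg adjustment). Alternative oligos and the microglia libraries were each fitted in the same way, and the difference between lines over 24 libraries. Replicate activities used a pseudocount of 0.5. Alternatives were TMM, totals of reference oligos, DESeq2 1.42.0, limma 3.58.1, other count limits, a replicate block and leaving out each replicate. The code was tested on simulated data with 200 changed oligos. It recovered 94% of changes of -2 and 98% of changes of 2, but 52% of changes of -1 and 64% of changes of 1. Of the calls in that test 7.78% were false, which is above the adjusted p threshold of 0.05. The simulated DNA and RNA libraries each had their own spread, while the fit used a common spread for both.

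The fragments described, the 22 gene lists and the tests were chosen with earlier results of these data known, and list patterns were trimmed after the gene names were seen. Named fragments were the 15 highest and 15 lowest calls with all 6 replicates on one side of the median, at most 1 per gene and direction, up to 2 calls each way per list, the extreme genes with at least 10 fragments, and the oligos nearest the limit of 100. Some of them are not printed, and 1 gene among the extreme gene medians is not reported here. Of the 1602 genes, 1516 matched a RefSeq symbol (GRCh38.p14), 73 an older symbol and 13 none.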

Additional observations from a re-analysis of the deposited data

Results flagged for a closer look

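Activity differed between the lines for 9 of the 30 highest and lowest fragments (edgeR interaction, adjusted p under 0.05), beside 60 of all 10948 oligos tested (0.548%), each given as microglia minus SH-SY5Y. It was -2.50 for TREML2 rs112522404, -1.43 for ARHGAP40 rs6027039, -1.15 for GIN1 rs257316 (adjusted p = 0.000782), -0.85 for ATXN3 rs1134377 (0.000418), -0.77 for WDR27 rs16888021 (0.0449) and -0.76 for KCTD10 rs11540749 (2.82e-07). It was 3.20 for CARF rs6736831 (0.000391), 2.95 for LMO7 rs9544054 (0.0303) and 2.28 for ACSM1 rs189249655 (0.000286). The SH-SY5Y activity that chose these fragments is 1 side of each difference. The choice itself favours negative differences for the highest fragments and positive ones for the lowest. Neither the signs nor the share of 9 in 30 is therefore a finding.

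In 2 of the 30 fragments 1 RNA replicate stood apart from the other 5, by a gap test that flags about 1 group in 20 by chance. Replicate 6 of LMO7 rs9544054 was at -7.26, a value set by the pseudocount at 0 counts. Replicate 1 of TSNARE1 rs79248723 was at -0.83.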

How the results depend on the processing

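The 813 calls became 906 with TMM, 815 with totals of reference oligos, 1000 with limma and 769 with the replicate block, and 1584 with DESeq2. Higher calls moved from 293 to 459 with TMM, 888 with DESeq2 and 190 with the replicate block. Without 1 replicate all calls numbered 569 to 710 and higher calls 195 to 244, the fewest without replicate 4. The cause was not tested, except that fewer libraries entered those fits. The 60 differences between lines, over all oligos tested, became 108 with TMM. No named activity reversed, and 56 of 90 named calls passed in all 6 fits that left out a replicate. With the replicate block 11 of the 90 did not pass. The main fit did not pair libraries by replicate number. Deviations of same-numbered DNA and RNA libraries correlated by 0.00962 to 0.0536, and those of other numbers by -0.0514 to 0.0116. All 6 RNA and 5 of 6 DNA libraries correlated best with their own number, so a weak likeness by number is present. Depth limits the rarest fragments most. The p-values rest on the spread between libraries, beside a counting part in which each count stands for a molecule.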

Other observations

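Median activity was 0.00 for fragments with an A or T reference base, 0.01 for C and -0.01 for G. Fragments with a C were called higher in 3.77% and lower in 5.49%, and those with an A in 2.10% and 4.62%. For G the shares were 2.82% and 5.34%, and for T 2.53% and 4.59%. Over all oligos tested they were 2.68% and 5.19%. Chromosome medians ran from -0.05 on chromosome 7 (581 fragments) to 0.04 on chromosome 10 (250). The share called higher ran from 1.09% on chromosome 2 (8 of 737) to 4.56% on chromosome 22 (13 of 285). Fragments of the 41 genes that RefSeq lists as lncRNA had a median of 0.01, with 5 of 174 called higher and 9 lower, and those of protein-coding genes a median of 0.00, with 279 of 9931 higher and 499 lower. These are descriptions with no test and no adjustment for the DNA count, with which the share called rose.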
